A study of Homo sapiens with 12 samples.

Results

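The cytosolic ribosomal protein genes and the main translation elongation factor genes were followed in 2 human prostate cancer cell lines after FOXA1 knockdown. Members were the protein-coding genes whose symbols start with RPL or RPS followed by a number (with an A, X, Y or L where present), the stalk genes RPLP0, RPLP1 and RPLP2, RPSA, and EEF1A1, EEF1B2, EEF1D, EEF1G and EEF2. The rule found 91 of the 60106 genes in the tables and used no measured value. They comprised 31 small subunit genes, 43 large subunit genes, 3 stalk genes, 5 elongation factors, 7 low-abundance paralogues (RPL3L, RPL7L1, RPL10L, RPL22L1, RPL26L1, RPL39L and RPS27L) and 2 Y-linked genes, whose levels are not given. The first 4 classes, 82 genes, are called the core genes here. PC3, a line from a bone metastasis, and VCaP, a line from a vertebral metastasis, were each transfected for 72 hours with non-targeting siRNA (NSI) or with FOXA1 siRNA (siFOXA1), with 3 libraries per group. PC3 grew in RPMI with 20 nM siRNA, and polyadenylated RNA was sequenced. VCaP grew in DMEM with 40 nM siRNA, and total RNA was sequenced, so line, dose, medium and library kit cannot be told apart. All cells received RNAiMax and the labels name no genotype change. The labels do not say that the replicates were separate cultures, so p-values measure only the spread between these libraries, which may be technical.

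The ribosome is built from a small subunit, which reads the messenger RNA, and a large subunit, which forms the peptide bonds. Its proteins are needed in nearly equal numbers, and their mRNAs are among the most abundant in dividing cells. EEF1A1 brings aminoacyl-tRNA to the ribosome, EEF1B2, EEF1D and EEF1G belong to the complex that recharges it with GTP, and EEF2 moves the ribosome along the mRNA. Many of these mRNAs begin with a 5′ terminal oligopyrimidine (TOP) tract, a C at the first base followed by a run of C and T, through which mTOR signalling and LARP1 control their translation and stability.

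The start sites of the genes that the results turn on are shown because this tract is what most members share beyond their names. Each sequence runs 5′ to 3′ over 30 bases of the gene's strand, 15 before the RefSeq start and 15 from it, on GRCh38.p14. Capitals mark the unbroken run of C and T that starts with a C at the annotated start, where that run held at least 5 bases.
EEF1A1, minus strand, chr6:73521018-73521047: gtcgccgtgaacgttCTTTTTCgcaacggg
EEF2, minus strand, chr19:3985449-3985478: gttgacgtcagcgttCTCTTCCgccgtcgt
RPL7A, plus strand, chr9:133348203-133348232: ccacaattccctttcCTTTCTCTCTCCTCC
RPS16, minus strand, chr19:39435935-39435964: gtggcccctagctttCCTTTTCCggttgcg
RPL14, plus strand, chr3:40457324-40457353: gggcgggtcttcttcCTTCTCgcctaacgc
RPLP1, plus strand, chr15:69452803-69452832: gtataggcgcgagagCCCCTTTCCTCagct
RPS29, minus strand, chr14:49598696-49598725: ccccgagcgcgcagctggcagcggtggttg
RPL22, minus strand, chr1:6199581-6199610: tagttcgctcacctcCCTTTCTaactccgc
RPL22L1, minus strand, chr3:170870181-170870210: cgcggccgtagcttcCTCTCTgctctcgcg
RPS27, plus strand, chr1:153990747-153990776: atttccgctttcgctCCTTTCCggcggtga
RPS27L, minus strand, chr15:63157463-63157492: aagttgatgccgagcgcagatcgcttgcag
The RefSeq table matched 73 of the 91 members. In 51 of these 73 genes, 69.9%, at least 1 annotated start was a C followed by at least 4 further C or T on the gene's strand. The same was true of 1404 of the 27305 genes in the table, 5.14%. With the C allowed within 5 bases of the start, the counts were 58 members, 79.5%, and 6886 genes, 25.2%. Among the matched classes, 18 of 24 small subunit genes, 25 of 35 large subunit genes and 3 of 3 stalk genes had the tract, against 1 of 5 paralogues, RPL22L1. RPS29, the core gene whose response differed most between the lines, did not have it at the start listed above.

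The labelled knockdown was visible in both lines. FOXA1, a forkhead transcription factor of the luminal prostate, was at 303, 244 and 266 CPM (counts scaled to a common library size) in PC3 NSI and at 163, 182 and 162 CPM in PC3 siFOXA1. In VCaP it was at 458, 468 and 544 CPM in NSI and at 85.2, 73.6 and 83.0 CPM in siFOXA1. Thus 62.3% of the NSI mean remained in PC3 and 16.5% in VCaP, with no overlap between the groups in either line (exact permutation test, two-sided, p = 0.1 in each, the smallest that 3 against 3 allow). TMPRSS2, a protease gene of luminal prostate cells, averaged 117 CPM in VCaP NSI and 0.36 CPM in PC3 NSI, and the leukocyte gene PTPRC averaged 0.11 and 0.024 CPM. The fibroblast gene COL1A1 averaged 2.1 CPM in VCaP NSI and 21 CPM in PC3 NSI. After siFOXA1, PTPRC averaged 0.020 CPM in VCaP and 0.11 CPM in PC3, and COL1A1 averaged 1.1 and 31 CPM. Library totals were 123140099 to 188226483 counts in PC3 and 48187047 to 59839211 in VCaP. Mitochondrial genes took 13.1% to 15.7% of counts in PC3. In VCaP they took 3.02% to 3.29% in NSI and 4.04% to 4.69% in siFOXA1, so their share moved with the treatment there; its part in the results was not tested.

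The members together took a smaller share of the counts after siFOXA1. In PC3 they held 5.57%, 7.54% and 6.12% of each NSI library and 4.51%, 5.62% and 4.45% of each siFOXA1 library. The second siFOXA1 library lay just above the first NSI library, so these groups overlapped. In VCaP the members held 5.20%, 5.35% and 6.48% in NSI and 3.62%, 3.69% and 4.30% in siFOXA1, with no overlap. In bulk RNA, fewer cells of a type and less RNA per cell cannot be told apart.

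The core genes moved as a block from library to library, also within a group. Replicate 2 was the highest PC3 library for 81 of 82 core genes in NSI and for 82 of 82 in siFOXA1. Replicate 3 was the highest VCaP library for 82 of 82 in both groups. As a median over the core genes, relative to each gene's geometric NSI mean, PC3 stood at 87.2%, 118.8% and 96.1% in NSI and at 64.6%, 85.5% and 62.7% in siFOXA1. The corresponding VCaP medians were 91.4%, 91.9% and 119.2% in NSI and 65.4%, 66.3% and 80.3% in siFOXA1. The rise of 1 library within a group was therefore of a similar size to the gap between the groups. Between libraries with the same number, all 82 core genes were lower in siFOXA1 in each PC3 pair, with median log2 ratios of −0.45, −0.48 and −0.61. In VCaP 82, 82 and 80 of them were lower, with medians of −0.49, −0.48 and −0.57.

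**Figure D1:**
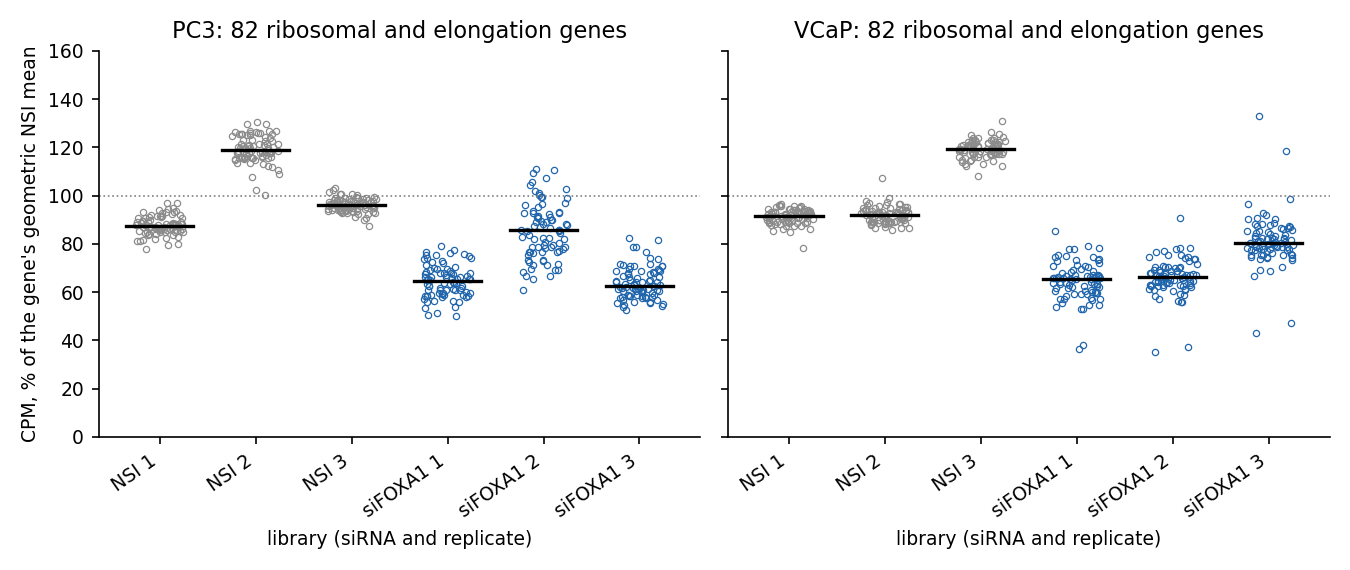
Level of each of the 82 core genes (circles) in every library, as CPM in percent of the gene's geometric mean over the 3 NSI libraries of the line, with the median as a bar. Replicate 2 in PC3 and replicate 3 in VCaP stand above the other libraries of their groups, at medians of 118.8% and 119.2% in NSI and 85.5% and 80.3% in siFOXA1.

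Per length, the order of the core genes was similar in the 2 lines. The NSI level, as CPM per kilobase of exon (RPKM), had a median of 420 in PC3 and ran from 8.73 to 2752 with a median of 274 in VCaP. Across the 82 genes, which shared the libraries and annotated exon lengths, Spearman's rho between the lines was 0.78. Among the highest in PC3 were the large subunit genes RPL12 (1848 ± 280 RPKM, SD, n = 3), RPL8 (1751 ± 366), RPL13A (1612 ± 266) and RPL7A (1465 ± 196). Neighbours among these 4 differed by less than the sum of their SDs. In VCaP the highest were RPS18 (2752 ± 586 RPKM), EEF1A1 (1775 ± 313), RPS27 (1643 ± 338), RPL13A (1526 ± 297) and RPL7A (1324 ± 227), of which only RPS18 stood apart from the next by more than the sum of their SDs. RPL7A and RPL13A were among the highest in both lines. RPL28, RPS28 and RPLP2 differed most between the lines, with PC3 levels 17.6, 12.1 and 9.39 times those of VCaP. These ratios compare polyadenylated RNA counted without strand with total RNA counted by strand, and RPS28 shares 27.5% of its exon bases with KANK3 on the opposite strand.

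In PC3, 48 of the 89 members that passed the filter on low counts were lower after siFOXA1, spread over both subunits, the stalk and the elongation factors, and 1, the near-silent RPL10L, was higher. Calls are at an adjusted p under 0.05 in edgeR's quasi-likelihood test with Benjamini-Hochberg adjustment over all genes tested, and every adjusted p below comes from it. Over all 26478 genes tested, 13.9% were called lower and 13.9% higher. The members' median log2 fold change was −0.50, with quartiles of −0.62 and −0.37, against −0.01 over all genes. Of the members tested, 87 had a negative fold change. In 47 of them no siFOXA1 library reached the lowest NSI library, as in 22.7% of all genes tested, and in 1, RPL10L, every siFOXA1 library exceeded the highest NSI library, as in 22.4%. The lower calls were 17 of 31 small subunit genes, 23 of 43 large subunit genes, 2 of 3 stalk genes, 4 of 5 elongation factors and 2 of 7 paralogues.

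The PC3 count depended on how the shared rise of replicate 2 was treated. With the replicate number as a block, 87 members were called lower and 1 higher, and only RPS27L was not called, against 23.1% of all genes lower and 19.7% higher in that fit. Without replicate 2 of both groups the count was 80. Leaving out a single library gave 29 (NSI 2), 31 (NSI 3), 15 (siFOXA1 1), 74 (siFOXA1 2) or 23 (siFOXA1 3), and 47 without NSI 1. The median log2 fold change stayed between −0.66 and −0.33 in these fits. With library size alone as the scaling, the split of all PC3 calls moved to 4607 higher and 2562 lower, from 3675 and 3669, and 34 members were called lower and 1 higher.

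The deepest PC3 fall was that of RPL5 (ENSG00000122406.13_3, chromosome 1, 93297540 to 93307481, plus strand, GRCh37), which carries 5S rRNA into the large subunit and binds MDM2. It was at 836, 1056 and 867 CPM in NSI and at 469, 556 and 497 CPM in siFOXA1. Every siFOXA1 library lay below every NSI library, and RPL5 fell by 0.86 on the log2 scale (SE 0.12, adjusted p = 0.0012). RPS16 (ENSG00000105193.8_2, chromosome 19, 39923847 to 39926588, minus strand, GRCh37), a small subunit protein near the decoding centre, was at 342, 449 and 378 CPM in NSI. It was at 195, 265 and 212 CPM in siFOXA1, again with no overlap, a log2 change of −0.80 (SE 0.14, adjusted p = 0.0044). RPL14 (−0.75), RPS2 (−0.74), RPL7 (−0.72) and RPS21 (−0.72) followed, with adjusted p of 0.0022, 0.0052, 0.0051 and 0.024. RPS6, the small subunit protein phosphorylated by S6 kinase, went from 1096 ± 133 to 697 ± 87 CPM (SD, n = 3), a log2 change of −0.65 (adjusted p = 0.0056).

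The core genes that were not called in PC3 all had negative fold changes. RPL23A, a large subunit protein at the peptide exit, was at 244, 381 and 292 CPM in NSI and at 208, 329 and 205 CPM in siFOXA1, so the groups overlapped (log2 fold change −0.31, SE 0.22, adjusted p = 0.32, and 0.0076 with the block). RPL41 had the smallest difference of the core genes, −0.18 (adjusted p = 0.48, and 0.032 with the block). Of the 4 genes of high RPKM listed above, RPL7A fell (−0.66, adjusted p = 0.0073), while RPL8 (−0.51), RPL12 (−0.37) and RPL13A (−0.35) were not called (adjusted p from 0.055 to 0.11) but were with the block (largest adjusted p 0.0018). Across the core genes the SD of the log2 fold changes was 0.14, and the median SE of a single gene was 0.15. Spearman's rho of the fold change was 0.09 with the NSI RPKM and 0.01 with exon length (82 genes of the same libraries).

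**Figure D2:**
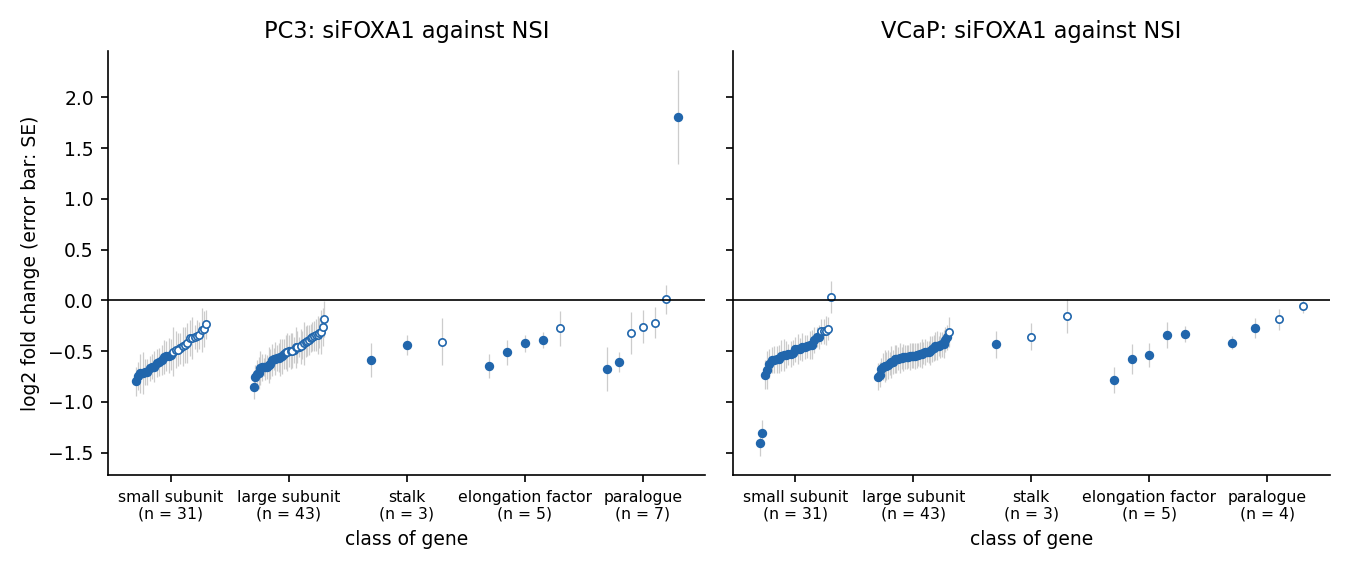
Log2 fold change of siFOXA1 against NSI for every tested member (points, with SE), by class, in PC3 and VCaP; filled points have an adjusted p under 0.05. Nearly all points lie below 0 in both lines, and RPL10L stands alone at 1.81 in PC3.

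In VCaP, 77 of the 87 members tested were lower after siFOXA1, against 23.3% of the 22939 genes tested, and 0 were higher, against 22.5%. By DESeq2 80 were lower and 0 higher, and 0 had a positive fold change at an unadjusted edgeR p under 0.05. The median log2 fold change was −0.52, with quartiles of −0.58 and −0.43, against 0.02 over all genes. The siFOXA1 libraries were all lower than the lowest NSI library for 72 members and for 28% of all genes tested. Calls covered 26 of 31 small subunit genes, 42 of 43 large subunit genes, 1 of 3 stalk genes, all 5 elongation factors, 2 of 4 tested paralogues and 1 Y-linked gene. Left uncalled were RPL30, RPLP1, RPLP2, RPS21, RPS24, RPS25, RPS28, RPSA, RPL22L1 and RPS27L. Leaving out siFOXA1 replicate 2 reduced the count to 51.

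A pair of small subunit genes fell furthest in VCaP. RPS29 (ENSG00000213741.10_4, chromosome 14, 50037702 to 50065408, minus strand, GRCh37), a zinc-binding protein of the small subunit head, was at 131, 140 and 180 CPM in NSI and at 54.2, 52.5 and 64.0 CPM in siFOXA1. The highest siFOXA1 library held less than every NSI library, and the mean was 37.8% of that in NSI (log2 fold change −1.40, SE 0.12, adjusted p = 2.1e-05). RPS15A (ENSG00000134419.15_3, chromosome 16, 18792617 to 18801705, minus strand, GRCh37) was at 192, 202 and 257 CPM in NSI and at 82.2, 80.2 and 101 CPM in siFOXA1. Its mean was 40.5% of that in NSI, with no overlap (log2 fold change −1.30, SE 0.13, adjusted p = 3.8e-05). Both genes have long annotated exon unions, 8211 and 4350 bases, against a median of 1433 over the members, and 4.91% and 5.01% of those bases are shared with another gene on the same strand. Across the 82 core genes of VCaP, Spearman's rho between fold change and exon length was −0.30. The next largest falls were those of EEF2, described with the elongation factors, RPL7A (−0.75, adjusted p = 0.0016), RPS2 (−0.73, adjusted p = 0.0027) and RPL23A (−0.73, adjusted p = 9.1e-04).

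RPS28, a small subunit protein near the mRNA exit, was the one tested VCaP member with a positive fold change. It was at 36.0, 38.2 and 45.1 CPM in NSI and at 33.7, 35.9 and 52.7 CPM in siFOXA1, and the groups overlapped (log2 fold change 0.04, SE 0.16, adjusted p = 0.88). In PC3 RPS28 was at 388, 613 and 446 CPM in NSI and at 237, 380 and 265 CPM in siFOXA1, and it fell there without overlap (log2 fold change −0.72, adjusted p = 0.035). The VCaP effect minus the PC3 effect was 0.74 (adjusted p = 0.079), so the response of RPS28 was not shown to differ in the main fit. With the replicate block the difference was 0.72 (adjusted p = 1.3e-04), so the call depended on the fit.

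The elongation factors fell in both lines, apart from EEF1D in PC3. EEF1A1 (ENSG00000156508.17_3, chromosome 6, 74225473 to 74231444, minus strand, GRCh37) was the member with the highest CPM in both lines. In PC3 it was at 5005, 5282 and 5196 CPM in NSI and at 3916, 3950 and 3943 CPM in siFOXA1 (log2 fold change −0.39, SE 0.08, adjusted p = 0.0070). Both PC3 groups were tight, with replicate 2 the highest by a small margin. In VCaP EEF1A1 was at 8207, 8205 and 10990 CPM in NSI and at 5436, 5794 and 7098 CPM in siFOXA1, without overlap (log2 fold change −0.58, SE 0.15, adjusted p = 0.010).

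EEF2 (ENSG00000167658.15_2, chromosome 19, 3976054 to 3985467, minus strand, GRCh37) was at 2208, 2285 and 2351 CPM in PC3 NSI and at 1742, 1751 and 1614 CPM in PC3 siFOXA1. In VCaP it was at 1684, 1738 and 2226 CPM in NSI and at 991, 1048 and 1241 CPM in siFOXA1. EEF2 was the one core gene whose highest PC3 NSI library was not replicate 2. It fell without overlap in both lines, by 0.42 on the log2 scale in PC3 (SE 0.08, adjusted p = 0.0063) and by 0.78 in VCaP (SE 0.13, adjusted p = 8.8e-04). EEF1B2 changed by −0.64 in PC3 (adjusted p = 0.0054) and by −0.34 in VCaP (adjusted p = 0.049, a call lost in 5 of 15 alternatives). EEF1G changed by −0.51 (adjusted p = 0.015) and −0.54 (adjusted p = 0.0051), but 99.9% of its exon bases are shared with RP11-864I4.1 on the same strand, so its level is uncertain. EEF1D was at 236 ± 49 and 195 ± 37 CPM in PC3 (SD, n = 3; adjusted p = 0.27, and 0.014 with the replicate block) and fell by 0.33 on the log2 scale in VCaP (adjusted p = 0.0085).

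**Figure D3:**
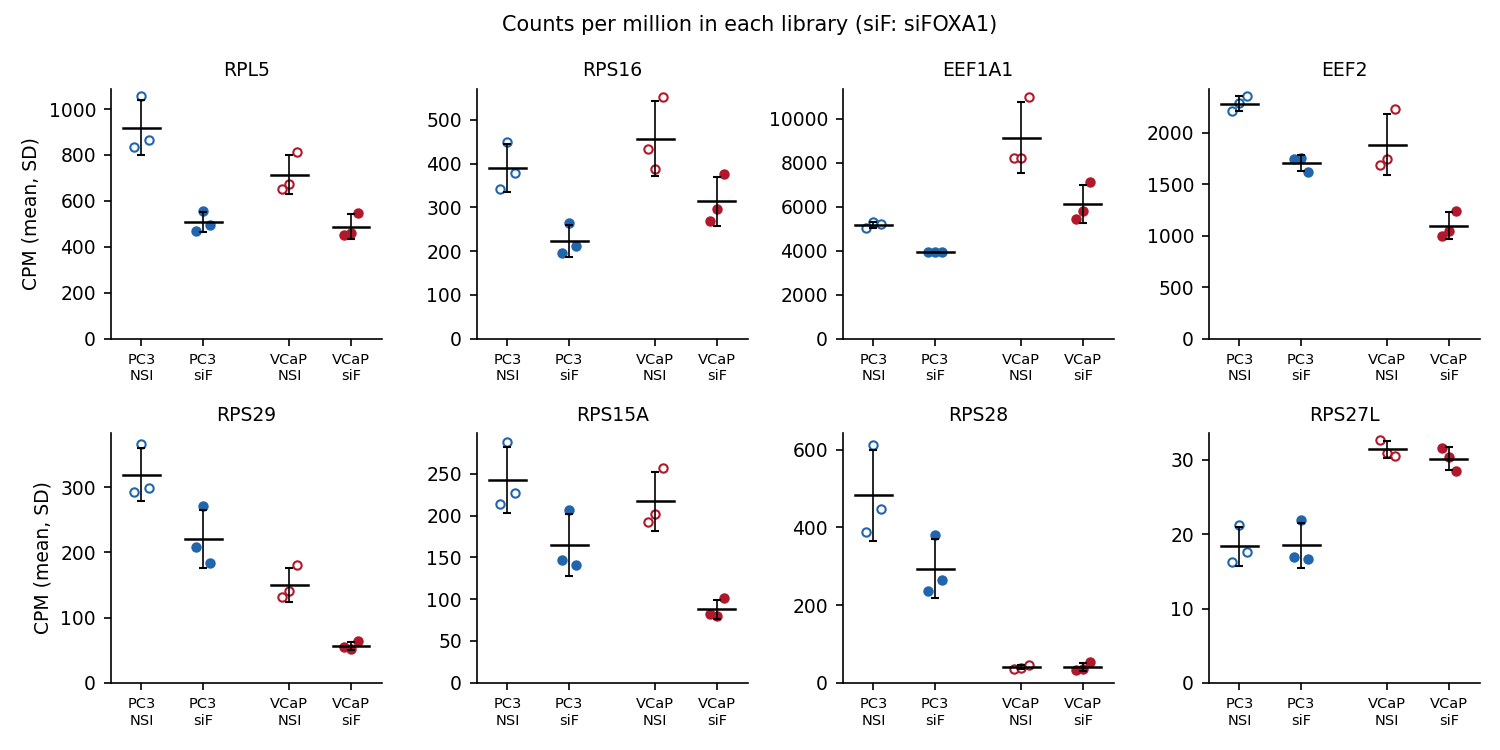
CPM of 8 members in each library (points), with the group mean and SD, on linear axes from 0; open points are NSI and filled points siFOXA1, with PC3 in blue and VCaP in red. EEF2 and RPL5 are lower after siFOXA1 in both lines, RPS29 and RPS15A drop to 37.8% and 40.5% of NSI in VCaP, and RPS27L overlaps between groups in both lines.

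The stalk proteins recruit elongation factors to the large subunit. RPLP0, the stalk base, was at 1699, 2050 and 1751 CPM in PC3 NSI and at 1320, 1438 and 1294 CPM in PC3 siFOXA1 (log2 fold change −0.44, adjusted p = 0.013). In VCaP it was at 2001, 1967 and 2513 CPM in NSI and at 1417, 1515 and 1876 CPM in siFOXA1 (−0.43, adjusted p = 0.024). Neither comparison of RPLP0 had overlapping groups. RPLP2 was called in PC3 (−0.59, adjusted p = 0.030) but not in VCaP (−0.16, adjusted p = 0.48). RPLP1 was called in neither line in the main fits. Its fold change was −0.41 in PC3 (adjusted p = 0.22, and 0.0033 with the block). In VCaP it was −0.36 (adjusted p = 0.053, and 0.0032 with the block), and 8 of 15 alternatives called RPLP1 lower there. For RPLP2 the VCaP effect minus the PC3 effect was 0.42 (adjusted p = 0.29), so its response was not shown to differ.

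The members lower in both lines numbered 43, which is 89.6% of the 48 in PC3 and 55.8% of the 77 in VCaP. Over the 19282 genes tested in both lines, 6.48% were called lower in both. Called lower in PC3 alone were RPLP2, RPS21, RPS28 and RPSA, and also RPL3L, which was under the filter in VCaP. A further 34 were called lower in VCaP alone, while 9 were called lower in neither. Members not tested in a line count here as not called in it. Of all genes tested in each line, 13.9% were called lower in PC3 and 23.3% in VCaP. The estimated sizes of the change were not correlated between the lines. Across the 82 core genes the Pearson correlation of the log2 fold changes was 0.01 and Spearman's rho was 0.04, and without RPS29 and RPS15A the Pearson correlation was −0.03 (80 genes). The SD of the fold changes was 0.144 in PC3 and 0.185 in VCaP, where the median SE of a gene was 0.153 and 0.128. These SEs come from the main fits and include the rise of whole libraries that the core genes shared. They are therefore not the error of the differences between genes. How much of the spread between genes was error was not tested, so a correlation near 0 cannot show whether the true sizes agreed.

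Tested directly, as the VCaP effect minus the PC3 effect over all 12 libraries, the response of 2 of 91 members differed between the lines. Of the 30450 genes tested, 11.1% were called lower and 11.1% higher in this comparison. RPS29 fell further in VCaP by −0.88 on the log2 scale (SE 0.21, adjusted p = 0.0070) and RPS15A by −0.76 (SE 0.23, adjusted p = 0.026). RPS15A was no longer called without VCaP NSI replicate 3 (−0.61, adjusted p = 0.075), siFOXA1 replicate 1 (−0.71, adjusted p = 0.063) or siFOXA1 replicate 2 (−0.70, adjusted p = 0.069).

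**Figure D4:**
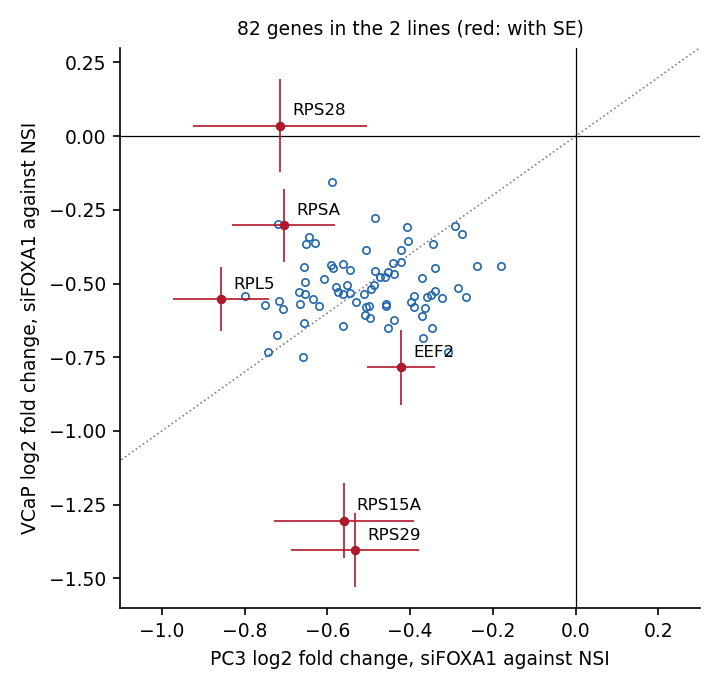
Log2 fold change of the 82 core genes in VCaP (vertical) against PC3 (horizontal), with equal change on the dotted line and SE bars for the 6 genes in red. The points form a cloud with no visible slope (Pearson 0.01), and RPS29 and RPS15A lie below it at −1.40 and −1.30 in VCaP.

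The paralogues are divergent copies, some of them largely confined to muscle or testis in normal tissue, and had lower RPKM than their parents. RPL7L1, which acts in ribosome assembly, fell in both lines. It was at 184, 166 and 181 CPM in PC3 NSI and at 122, 103 and 123.1 CPM in siFOXA1 (log2 fold change −0.61, adjusted p = 0.0028), where RPL7 changed by −0.72. Unlike the core genes, RPL7L1 was lowest in replicate 2 of both PC3 groups. In VCaP RPL7L1 was at 181, 178 and 197 CPM in NSI and at 138, 137 and 141 CPM in siFOXA1 (−0.42, adjusted p = 5.7e-04), where RPL7 changed by −0.68 (adjusted p = 8.9e-04).

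RPS27L, a p53-inducible copy of RPS27, was at 16.2, 21.2 and 17.6 CPM in PC3 NSI and at 16.9, 21.9 and 16.6 CPM in siFOXA1. In VCaP it was at 32.7, 31.0 and 30.5 CPM in NSI and at 31.6, 30.4 and 28.5 CPM in siFOXA1. The groups overlapped in both lines, with log2 fold changes of 0.01 (SE 0.14) and −0.06 (SE 0.06). RPS27 itself was at 470 ± 76 and 363 ± 85 CPM in PC3 (SD, n = 3; −0.37, adjusted p = 0.15, and 0.0023 with the block) and fell by 0.48 on the log2 scale in VCaP (adjusted p = 0.026). No test compared the paralogues with their parents.

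RPL22L1 was at 18.1, 25.2 and 18.8 CPM in PC3 NSI and at 17.5, 20.2 and 14.1 CPM in siFOXA1, and was not called in either line (−0.26, adjusted p = 0.27, and 0.031 with the block, in PC3; −0.19, adjusted p = 0.18, in VCaP). Its parent RPL22 fell in both, by 0.66 (adjusted p = 0.0071) and by 0.45 (adjusted p = 0.0049) on the log2 scale. RPL26L1 had a log2 fold change of −0.22 in PC3 (adjusted p = 0.31, and 0.018 with the block) and fell by 0.27 in VCaP (adjusted p = 0.048), a call that was lost in 10 of 15 alternatives, and RPL26 fell by 0.59 (adjusted p = 0.024) and by 0.45 (adjusted p = 0.032). RPL39L was at 13.5, 19.7 and 14.6 CPM in PC3 NSI and at 11.9, 16.6 and 9.71 CPM in siFOXA1, and was under the filter in VCaP. In PC3 its log2 fold change was −0.32 (adjusted p = 0.28) and that of RPL39 was −0.51 (adjusted p = 0.070), and with the block these p were 0.016 and 2.4e-04. RPL39 fell by 0.39 in VCaP (adjusted p = 0.027). RPL3 and RPL10 fell in both lines, by 0.65 and 0.49 and by 0.46 and 0.58, with adjusted p from 0.0042 to 0.020. RPL10 shares 61.2% of its exon bases with DNASE1L1 and XX-FW83563B9.5 on the opposite strand. PC3 was counted without strand, so the PC3 level of RPL10 is uncertain. RPL3L and RPL10L lay close to 0. RPL3L averaged 0.51 and 0.32 CPM in PC3 (−0.68, adjusted p = 0.049, a call lost in 12 of 15 alternatives), and RPL10L, an intronless copy of RPL10, had rounded counts of 8, 12 and 4 for NSI, then 26, 26 and 33 for siFOXA1 (1.81, SE 0.46, adjusted p = 0.020). At these counts reads divided among copies can set the level, so both are uncertain.

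**Figure D5:**
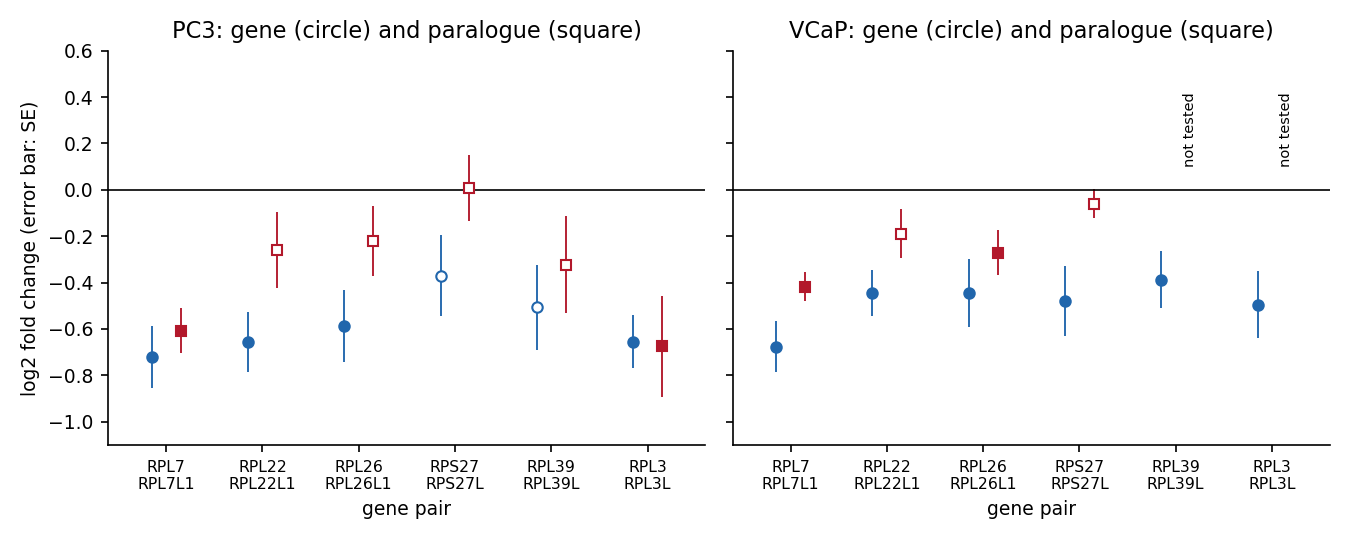
Log2 fold change (with SE) of 6 ribosomal protein genes (circles) and their paralogues (squares) in PC3 and VCaP; filled symbols have an adjusted p under 0.05. RPS27L lies at 0.01 and −0.06, while RPL7L1 is called lower in both lines.

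Members with and without the start tract had similar medians. In PC3 27 of 50 tested members with the tract at an annotated start were called lower (median −0.49), as were 13 of 21 without it (median −0.51). In VCaP the counts were 44 of 51 (median −0.52) and 18 of 20 (median −0.50). Among all genes tested, 13.9% were called lower in PC3 and 23.3% in VCaP. The 2 sets were not compared by a test. The set without the tract held genes, such as RPL10A, RPL19 and RPS7, that had it when the C was allowed within 5 bases of the start. By that looser rule 58 of the 73 matched members had the tract, against 51 at the annotated start. The split therefore cannot show how members that lack a tract responded.

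Processed pseudogenes and shared exons bear on the counts, since a fragment with several places was divided among them. The tables held 412 pseudogenes named after 72 of the members, and these took 2.64% to 2.99% of the reads of members and pseudogenes together in PC3 and 4.72% to 4.94% in VCaP. The share was largest for RPL39, at 23.5% in PC3 NSI and 33.7% in VCaP NSI, and for RPL41, at 28.4% and 19.4%. Summing each member with its pseudogenes gave 48 lower calls in PC3 and 77 in VCaP, as many as without the sum. Of the pseudogenes themselves, 72 of 145 tested were lower in PC3 and 3 higher (median −0.99), and 44 of 128 were lower in VCaP and 6 higher (median −0.45). The shares over all genes tested were 13.9% lower and 13.9% higher in PC3, and 23.3% lower and 22.5% higher in VCaP.

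Short genes and abundant genes outside the list are given for reference. Among other protein-coding genes with exons no longer than the members' median, the median log2 fold change was −0.09 in PC3, with 204 of 1680 called lower, and −0.06 in VCaP, with 382 of 1377. Among those at or above the members' median CPM, it was −0.11 in PC3, with 51 of 200 called lower, and −0.21 in VCaP, with 67 of 140.

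Genes of the translation apparatus that the symbol rule leaves out were mixed. RACK1, a scaffold on the small subunit, was at 937, 1132 and 954 CPM in PC3 NSI and at 695, 816 and 693 CPM in siFOXA1 (−0.46, adjusted p = 0.016). It fell by 0.73 on the log2 scale in VCaP (adjusted p = 5.5e-04). EEF1A2, the other gene for elongation factor 1A, fell by 0.83 (adjusted p = 6.8e-04) and by 0.48 (adjusted p = 0.0036). In all, 3 of these 6 genes were called lower in PC3, against 13.9% of all genes tested, and 3 of 6 in VCaP, against 23.3%, with medians of −0.44 and −0.29.

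Other mRNAs known for a TOP tract were mostly lower. Of 8 genes, 5 were called lower in PC3 (median −0.41), against 13.9% of all genes tested, and 7 in VCaP (median −0.43), against 23.3%. BTF3, a nascent chain factor, fell by 0.56 in PC3 (adjusted p = 0.0022), and HNRNPA1, an RNA-binding protein, by 0.50 (adjusted p = 0.0046). In VCaP HNRNPA1 fell by 0.74 (adjusted p = 8.0e-05) and PABPC1, the poly(A)-binding protein, by 0.67 (adjusted p = 0.0035). NAP1L1 (−0.13, adjusted p = 0.24) and TPT1 (−0.36, adjusted p = 0.065, and 0.0028 with the block) were not called in PC3. VIM, the mesenchymal filament gene, had a positive fold change in both lines: it rose in VCaP from 0.26 to 0.69 CPM (1.38, adjusted p = 0.0091) and in PC3 was at 747 and 820 CPM (adjusted p = 0.29).

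Initiation factors fell in part. In PC3 21 of 40 were called lower and 1 higher (median −0.33), against 13.9% of all genes tested in each direction, and in VCaP 18 of 40 and 1 (median −0.19), against 23.3% and 22.5%. EIF4H, a helper of the helicase EIF4A, was at 331, 313 and 343 CPM in PC3 NSI and at 192, 196 and 189 CPM in siFOXA1 (−0.78, adjusted p = 2.9e-04), and its fold change in VCaP was −0.16 (adjusted p = 0.067). This difference between the lines passed its test (0.60, adjusted p = 7.8e-04). EIF3L, a subunit of the EIF3 complex, fell in both lines, by 0.75 (adjusted p = 3.2e-04) and by 0.62 (adjusted p = 8.1e-04). EIF4G2, a scaffold used without cap binding, fell by 0.74 in VCaP (adjusted p = 5.7e-05). EIF4A2 rose in PC3 (0.32, adjusted p = 0.020) and EIF2B1 in VCaP (0.26, adjusted p = 0.0039).

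Of 6 termination and rescue factors, ABCE1 (−0.45, adjusted p = 0.0070), GSPT1 (−0.38, adjusted p = 0.013) and ETF1 (−0.37, adjusted p = 0.015) fell in PC3. Among all genes tested in PC3, 13.9% were called lower. The 5 tested in VCaP had fold changes from −0.12 to 0.05, with adjusted p from 0.15 to 0.72. Of 17 genes of the mTOR, 4E-BP and LARP group, 4 were lower and 0 higher in PC3 (median −0.18), against 13.9% of all genes tested in each direction. In VCaP 6 were lower and 4 higher (median −0.05), where 23.3% of all genes tested were lower and 22.5% higher. EIF4EBP2, a repressor of cap-dependent initiation, was at 138, 140 and 145 CPM in VCaP NSI and at 65.7, 61.2 and 62.3 CPM in siFOXA1 (−1.16, adjusted p = 8.4e-07), and it fell by 0.69 in PC3 (adjusted p = 0.0034). The S6 kinase gene RPS6KB2 fell by 0.90 in VCaP (adjusted p = 7.1e-06), and EEF2K, the kinase that inhibits EEF2, rose by 0.53 (adjusted p = 2.1e-04). DEPTOR, an inhibitor within the mTOR complexes, fell in PC3 (−0.66, adjusted p = 0.0020) and rose in VCaP (0.31, adjusted p = 0.047), a difference of 0.96 (adjusted p = 2.6e-04). LARP1 was not called in either line (−0.20, adjusted p = 0.27, and 0.029 with the block; 0.06, adjusted p = 0.45). LARP4 rose by 0.38 in VCaP (adjusted p = 4.7e-04) and was not called in PC3 (−0.09, adjusted p = 0.67). For LARP4 the VCaP effect minus the PC3 effect was 0.45 (adjusted p = 0.068), so its response was not shown to differ.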

How the data were processed

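RNA was sequenced from 12 libraries. The deposited values were expected counts per gene (fractional), which the authors made with featureCounts, per the file headers: both ends mapped, multi-mapping and multi-gene fragments divided, exons summed by gene of GENCODE release 28 on GRCh37, strand ignored in PC3 and reverse-strand in VCaP. The submitters' processing notes also name STAR 2.7.3a and Subread 2.0.0. Counts were rounded and fitted per line with edgeR 4.0.16 (R 4.3.3; TMM, filterByExpr, quasi-likelihood), and the lines were compared by an interaction term over 12 libraries. P-values were adjusted over all genes tested. CPM used the TMM factors, and RPKM divided the CPM by exon length. Members and gene lists were chosen with earlier results of these data known. Named members were the 6 largest called changes per direction and line, the paralogues and their parents, the elongation factors, the stalk, the highest and lowest by RPKM, and called differences, with up to 2 genes per direction from each list. Not every gene chosen this way is reported here. A few others (RPS6, RPL41, RPS28, ETF1, LARP1) were chosen after their values were seen. The main fits had no block for the replicate number, which was fitted only as an alternative. Same-numbered PC3 libraries deviated together (r = 0.45, 0.59 and 0.25). So did NSI 1 with siFOXA1 3 (r = 0.35) and NSI 3 with siFOXA1 1 (r = 0.24), so only replicate 2 stood clearly apart. Alternatives were RLE and upper-quartile factors, library size alone, scaling without the members, no filter, DESeq2 1.42.0, the replicate block, pseudogenes summed and leaving out each library. The scripts were tested on simulated data.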

Additional observations from a re-analysis of the deposited data

Results flagged for a closer look

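For 2 members the response to siFOXA1 differed between the lines by the test of the difference itself. RPS29 had a log2 difference, VCaP effect minus PC3 effect, of −0.885, and RPS15A one of −0.757. RPS29 stayed called when any 1 library was left out, whereas RPS15A did not. The pseudogene shares, the strand setting and the kit differ between the lines, and their part in these differences was not tested.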

How the results depend on the processing

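In PC3 the count of members called lower was 48, and 87 with the replicate block. It ran from 15 to 80 when libraries were left out (the 80 without replicate 2 of both groups, chosen after seeing the data). The count called higher ran from 0 to 1. In VCaP the count lower ran from 51 to 83. Between same-numbered VCaP libraries r was 0.11, 0.03 and 0.39, so replicate 3 deviated together in the 2 groups. Replicates 1 and 2 did not pair by number: r was 0.27 for NSI 1 with siFOXA1 2 and 0.20 for NSI 2 with siFOXA1 1. The block in VCaP gave 83 in place of 77. The difference between the lines was called for 7 members lower and 6 higher with the replicate block (of all genes, 14% and 15%). Among them were EEF1B2, EEF2, RPL13A, RPL23A, RPL41, RPL5, RPS13, RPS15A, RPS21, RPS28, RPS29 and RPSA. It was called for 1 higher without a filter, and for 1 to 3 lower and 0 to 1 higher with libraries left out. With library size alone it was called for 3 members, EEF2, RPS15A and RPS29, and over the 30450 genes tested for 3888 lower and 2643 higher. RPS27L in PC3, near 0, took the other sign without NSI replicate 1 (−0.06), NSI replicate 3 (−0.02) or siFOXA1 replicate 2 (−0.13), and was at 0.17 without NSI replicate 2. The cause was not tested. The other scalings, DESeq2, no filter and summed pseudogenes kept the counts in each line within 1.5 times. Among the 35 named PC3 genes, 447 of 525 alternative values kept direction and call, 46 lost the call and 29 gained it. In VCaP these were 362, 32 and 11 of 405 for 27 genes, and 37 and 3 of 40 for the 2 called differences. The paralogues RPL10L, RPL3L and RPL39L were under the filter in VCaP and were not tested there.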
